A study of Mus musculus with 31 samples.

Results

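The genes described here are 10 regulators of the skeletal muscle program, taken by name from a fixed list out of 21938 protein-coding genes of the mouse annotation. The first 6, called lineage masters below, are the myogenic regulatory factors Myod1, Myf5, Myf6 and Myog and the paired-box factors Pax3 and Pax7. The other 4 are Mef2a, Mef2b, Mef2c and Mef2d. For each gene, the peaks of accessible chromatin were collected within 1 kb of any annotated transcript start, in the gene body and within 50 kb of the gene, 54 distinct peaks of 63456 in all.

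The study related the binding of transcription factors to mitotic chromosomes, screened in mouse embryonic stem cells, to their behaviour in interphase, measured in part in NIH-3T3, an established, immortalised fibroblast line derived from mouse embryos. The peaks come from ATAC-seq of NIH-3T3, in which the transposase Tn5 cuts and tags DNA that is free of nucleosomes, on 50000 cells of the parental line in 1 library. The parental sample is labelled wild type, its labels list no transgene and no doxycycline, and the cells grew in serum-containing medium. The paper describes doxycycline for its ATAC-seq cells without saying whether the parental line received it. The 30 samples in which 1 of 13 transcription factors or the transactivator rtTA3G alone was expressed, which the study treated with doxycycline at 500 ng/ml for 48 h, were not analysed here. With 1 library there is no replicate error, so no test between samples was made and the values describe this library.

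The myogenic regulatory factors are basic helix-loop-helix proteins that bind E-boxes as dimers with E-proteins. Myod1 and Myf5 commit cells to the muscle lineage, Myog drives their terminal differentiation, and Myf6 (MRF4) acts in both steps. Pax3 and Pax7 act upstream of them, Pax3 in the dermomyotome of the embryo and Pax7 in the satellite cells of the adult muscle, and both also act in the neural crest. The MEF2 proteins are MADS-box factors that bind an AT-rich site and work with the myogenic factors in muscle, but they are used in many other cells, including neurons, heart and lymphocytes. Forced expression of Myod1 in fibroblasts is the classical way to turn them into muscle cells, which makes the chromatin of these genes in a parental fibroblast line of interest.

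Each peak has a fold enrichment, which is the number of fragments over the summit divided by the number expected locally, each with 1 added, and a −log10 q, the adjusted significance of that enrichment. The number of fragments at the summit was solved from the fold and the unadjusted −log10 p, and its exact Poisson 95% interval covers counting error only. Over all peaks the median fold was 6.04 (quartiles 4.20 and 9.15) on a median of 29 fragments. In a bulk library, a region open in few cells and a region weakly open in all cells cannot be told apart. To check the fibroblast label, 20 fibroblast genes were looked up, of which 17 had a peak at a start, against 53.7% of all protein-coding genes. Their folds ran from 10.5 at Fn1 to 3.41 at Thy1, with a median of 6.33 that is below the 9.86 of all protein-coding genes with a start peak, and Fap, Lum and Postn had none. Fn1, Col1a2, Col3a1, Col5a1, Fbn1 and Pdgfra had a start peak that also lay within 1 kb of another gene's start. Among markers of other cell types, 2 of 6 blood genes (Cd14 and Spi1), 1 of 6 epithelial genes (Krt8) and 3 of 6 endothelial genes (Cdh5, Pecam1 and Tek) had one. The endothelial Cdh5 peak had a fold of 12.8, whereas Krt8 was at 3.25, and the part of these cell types in the results was not tested.

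Lineage masters were mostly without a peak at their starts, and the Mef2 genes all had one. A peak lay within 1 kb of a start in 1 of 6 lineage masters, Pax3, and in 4 of 4 Mef2 genes. Over all protein-coding genes the share was 53.7%, so the lineage masters were below it and the Mef2 genes above it. The rule takes any annotated start, and the number of starts differs between the groups. Myod1, Myf5, Myf6 and Myog have 1 distinct start each, Pax7 has 2 and Pax3 has 3. Mef2a, Mef2b, Mef2c and Mef2d have 7, 3, 27 and 6. At the outermost start alone, 1 of 6 and 3 of 4 genes had a peak. The 53.7% is for any start, and no share over all protein-coding genes is given for the outermost start. Such counts over 6 and 4 genes are descriptions. A start without a listed peak is called closed below, which says only that none was called at this depth. The 4 Mef2 genes did not have equally strong start peaks, with folds of 10.5 at Mef2a, 9.89 at Mef2b, 3.63 at Mef2d and 3.15 at Mef2c. The start peak of Pax3, at 11.4, was higher than each of them.

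**Figure D1:**
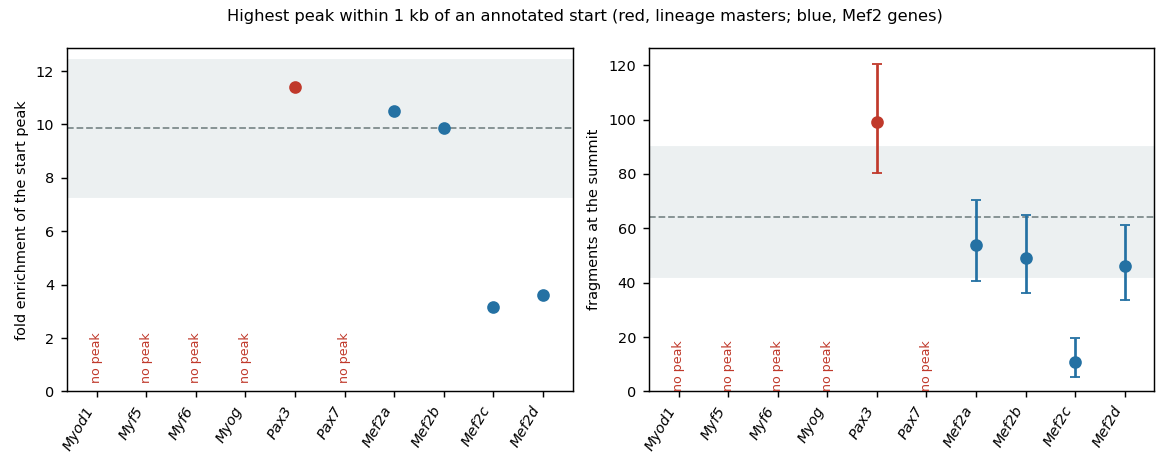
Fold enrichment (left) and fragments at the summit (right) of the peak with the highest fold within 1 kb of an annotated start of each gene, lineage masters in red and Mef2 genes in blue; vertical bars are exact Poisson 95% intervals, and the dashed line and band are the median and quartiles of all protein-coding genes with a start peak. Pax3 with 99 fragments lies above the band on the right, Mef2a, Mef2b and Mef2d with 46 to 54 lie within it (for Mef2b the peak with 49, its other start peak having 63), Mef2c with 11 lies far below, and 5 genes have no peak.

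Among the myogenic regulatory factors, Myod1 (chr7:46376474-46379099, + strand) had the strongest peaks within 50 kb, none of them at the gene itself. No peak overlapped its 2.63 kb, and the nearest lay 34.5 kb before its start and 2.63 kb after it. The stretch without a peak around its start was thus 37.1 kb, and 22.3% of protein-coding genes without a start peak lie in shorter ones. The core enhancer and the distal regulatory region that direct Myod1 in the embryo are known to lie upstream of the gene, inside this stretch without a peak. The peak just past the 3′ end (chr7:46379103-46379295) had a fold of 6.82 on 25 fragments (95% interval 16.2 to 36.9). The weaker of the 2 upstream peaks (chr7:46341400-46342018) had a fold of 6.28 on 45 fragments. The stronger one (chr7:46337378-46337990), 38.9 kb upstream, had a fold of 11.9 and a −log10 q of 62.4 on 87 fragments (69.7 to 107), higher in fold than 88.3% of all peaks. The summit with 100 bases to either side is printed as the strongest accessible sequence near any of the myogenic regulatory factors, with the 1 match of the TEAD letters CATTCC in capitals.
Myod1 upstream peak, chr7:46337516-46337716, + strand of GRCm38: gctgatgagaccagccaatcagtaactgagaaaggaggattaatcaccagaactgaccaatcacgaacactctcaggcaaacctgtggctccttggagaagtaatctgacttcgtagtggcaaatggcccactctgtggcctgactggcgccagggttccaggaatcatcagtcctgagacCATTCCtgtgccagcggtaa

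Myf5 (chr10:107482908-107486134) and Myf6 (chr10:107492853-107494737) lie next to each other on the − strand and share a stretch of 122 kb without a peak. Of the protein-coding genes without a start peak, 48.7% lie in shorter gaps, the median being 129 kb. The 1 peak within 50 kb of either gene was the same peak (chr10:107479739-107479884), with a fold of 4.20 on 15 fragments (8.40 to 24.7). It lay 6.25 kb from the start of Myf5 and 14.9 kb from that of Myf6, past the 3′ ends of both, and within 1 kb of the start of the miRNA gene Gm44403. On the upstream side the nearest peak was 115 kb from the start of Myf5. The pair thus had the lowest peak counts of the 10 genes, and 21.6% of all protein-coding genes have at most 1 peak within 50 kb.

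Myog (chr1:134289989-134292548, + strand) had no peak in its 2.56 kb and none between 19.3 kb upstream and 56.6 kb downstream of its start. The 2 peaks within 50 kb lie side by side upstream. The first (chr1:134270087-134270377) had a fold of 6.31 on 30 fragments, and the second (chr1:134270533-134270664) had 2.85 on 13 fragments with a −log10 q of 2.14, which is among the weakest of the list. The gap of 75.9 kb also holds Ppfia4, the neighbouring gene, and 39.8% of protein-coding genes without a start peak lie in shorter gaps. Across the 4 myogenic regulatory factors, 0 of 4 had a peak in the gene body. These genes are short, and only 16.4% of the protein-coding genes of at most 5 kb have a body peak, so the empty bodies are close to the background. For the starts the share over all protein-coding genes, of any length, is 53.7%, against 0 of 4. A share for short genes alone was not computed.

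The sequences before the starts of Myog and Myf5 are printed because both are closed in these cells and differ from the open Mef2 starts shown further on in their CpG content. Capitals mark CpG, 7 in the 250 bases before the RefSeq start of Myog and 3 before that of Myf5.
Myog, chr1:134289754-134290003, + strand of GRCm38: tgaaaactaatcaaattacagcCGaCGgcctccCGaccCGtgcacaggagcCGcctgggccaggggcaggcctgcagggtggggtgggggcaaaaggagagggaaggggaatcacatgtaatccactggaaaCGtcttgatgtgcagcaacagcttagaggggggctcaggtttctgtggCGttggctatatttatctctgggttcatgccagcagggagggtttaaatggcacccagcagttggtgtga
Myf5, chr10:107486135-107486384, − strand of GRCm38: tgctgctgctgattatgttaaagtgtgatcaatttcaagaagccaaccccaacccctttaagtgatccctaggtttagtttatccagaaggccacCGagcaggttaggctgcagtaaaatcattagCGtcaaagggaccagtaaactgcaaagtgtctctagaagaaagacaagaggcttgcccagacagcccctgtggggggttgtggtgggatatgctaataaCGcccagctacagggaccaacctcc

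The paired-box genes are of nearly equal length and were opposite in their peaks. Pax3 (chr1:78101267-78197134, − strand, 95.9 kb) had 7 peaks in the gene body and 13 within 50 kb. Pax7 (chr4:139737062-139833528, − strand, 96.5 kb) had 0 in the body and 2 within 50 kb. Among protein-coding genes of over 20 kb, 73.0% have a body peak, with a median of 1 peak and 2.83 per 100 kb. Pax3, with 7.30 per 100 kb, was above 79.7% of all protein-coding genes in this density and above 95.2% of them in the number of body peaks.

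The start peak of Pax3 (chr1:78196407-78197566) was 1160 bp wide, covered its 3 annotated starts and had its summit in the 5′ UTR. It held 99 fragments (80.5 to 121) where 7.76 were expected, and its −log10 q was 68.6. Its fold of 11.4 was above that of 66.2% of all protein-coding genes with a start peak. The 5 other lineage masters had no start peak to set beside it. Inside the gene, 5 of the other 6 body peaks were in intron 4 of 7, which is known to hold an enhancer for the neural crest. Their folds fell from 8.90 at chr1:78189172-78190211, a peak 1040 bp wide, through 7.52, 5.25 and 4.58 to 2.89 at chr1:78156895-78157002, which rests on 10 fragments. The remaining one, in intron 7 (chr1:78116056-78116385), had the highest fold of all peaks at the lineage masters, 13.5 on 56 fragments (42.3 to 72.7).

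Outside Pax3, 1 peak lay upstream, 6.84 kb from the start with a fold of 5.83. A group of 5 lay past the 3′ end, at 8.06 to 43.2 kb. The strongest of these (chr1:78057805-78058468) had 126 fragments (105 to 150) and a −log10 q of 88.7, the highest −log10 q of the 54 peaks, at a fold of 12.0. Pax3 alone supplied 13 of the 21 distinct peaks of the lineage masters, and without it 8 were left for 5 genes. The intron 7 peak is printed as the one with the highest fold at the lineage masters, with its 1 match of the AP-1 letters TGACTCA in capitals. AP-1 is the dimer of Jun and Fos proteins, abundant in growing fibroblasts.
Pax3 intron 7 peak, chr1:78116178-78116378, + strand of GRCm38: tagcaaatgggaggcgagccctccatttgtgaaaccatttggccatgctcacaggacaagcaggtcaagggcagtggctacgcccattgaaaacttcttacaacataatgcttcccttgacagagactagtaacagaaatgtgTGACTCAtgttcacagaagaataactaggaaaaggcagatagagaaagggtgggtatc

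Pax7 lay in the longest stretch without a peak of the 10 genes. The nearest peak was 667 kb upstream of its outermost start and 117 kb downstream, so that 784 kb held none, and this stretch also contains Igsf21 and Klhdc7a. Of the 10150 protein-coding genes without a start peak, 77.6% lie in shorter gaps, the median being 129 kb. The 2 peaks within 50 kb were both past the 3′ end, at chr4:139716571-139716770 with a fold of 6.83 on 25 fragments and at chr4:139688105-139688299 with 4.93 on 19.

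**Figure D2:**
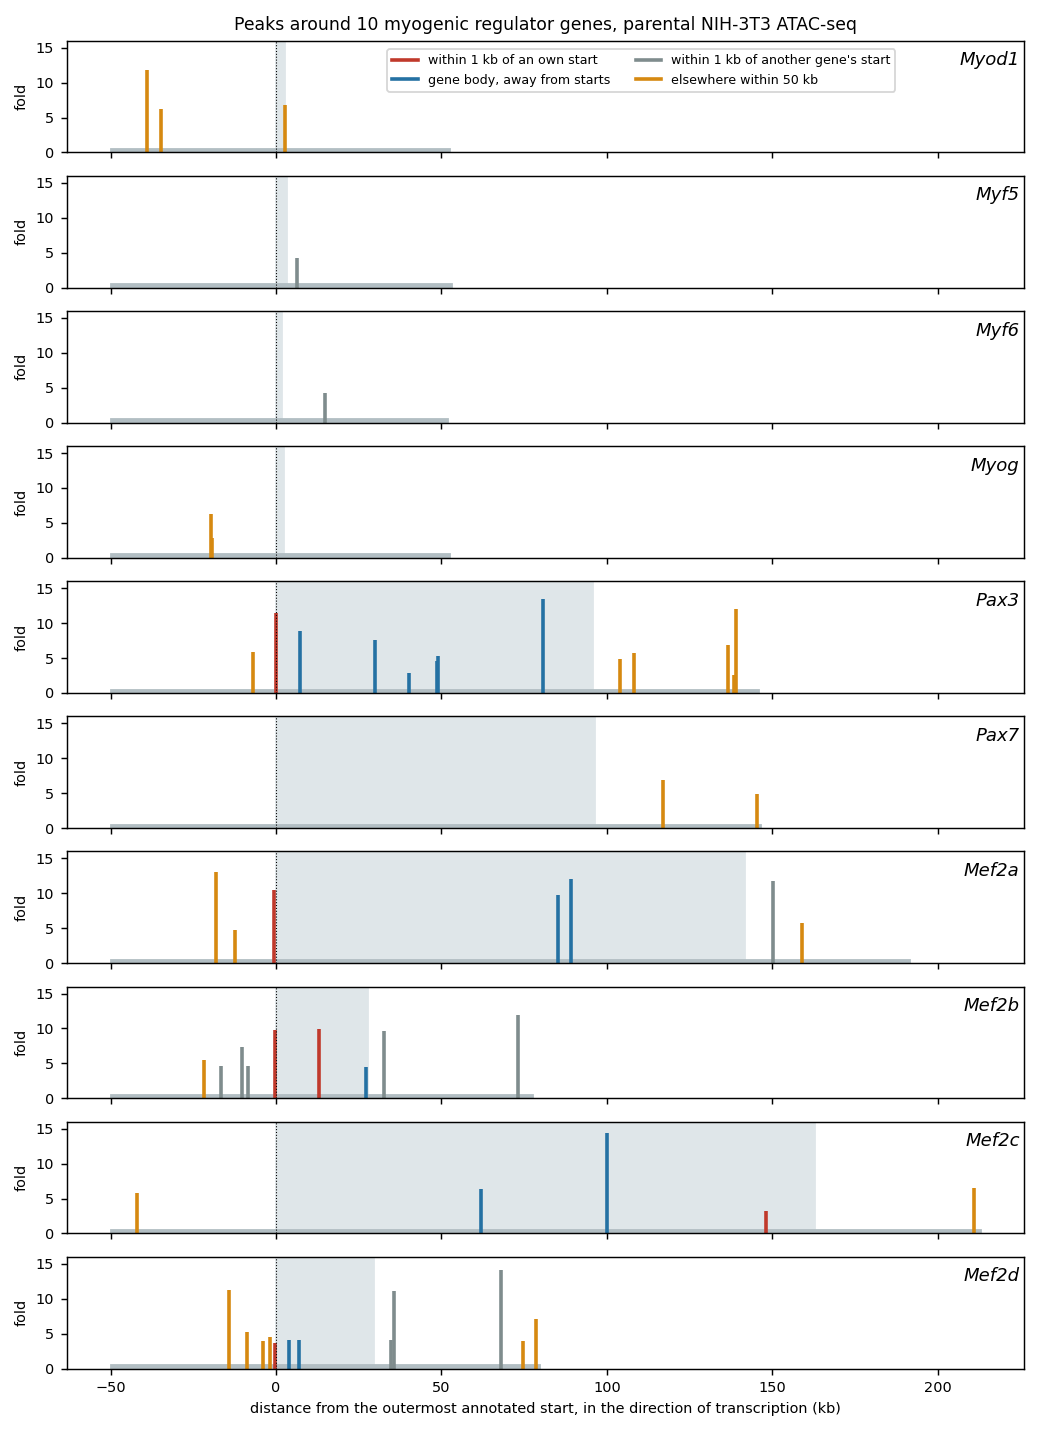
Peaks within 50 kb of each of the 10 genes; the horizontal axis is the distance of the summit from the outermost annotated start in the direction of transcription (kb), the height is the fold enrichment, the shaded box is the gene and the grey bar along the bottom the stretch that was searched. Pax3 and Mef2d are surrounded by 13 and 12 peaks, the boxes of Myod1, Myf5, Myf6, Myog and Pax7 are empty, and the highest line, 14.4, is in the body of Mef2c.

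The Mef2 genes carried 33 peaks within 50 kb, of which 5 were at own starts, 7 elsewhere in the gene body, 9 within 1 kb of the start of another gene and 12 in the remaining sequence. A peak within 50 kb was present at 10 of 10 genes of both groups, and 84.2% of all protein-coding genes have one, so presence alone did not separate the groups. The numbers did differ. The counts were 7, 9, 5 and 12 at Mef2a, Mef2b, Mef2c and Mef2d and 3, 1, 1, 2, 13 and 2 at Myod1, Myf5, Myf6, Myog, Pax3 and Pax7, with a median of 5 over all protein-coding genes. The ranges overlap because of Pax3, and the Mef2 genes are also longer than the myogenic regulatory factors, which widens the searched stretch. Per 100 kb searched, the values were 1.90 to 9.25 at the Mef2 genes and 0.969 to 6.64 at the lineage masters, against a median of 3.93, with Mef2a at 2.90 and Mef2c at 1.90 below Myod1 at 2.92.

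In fold, the peaks had a median of 6.28 at the lineage masters and 6.30 at the Mef2 genes. In fragments at the summit the medians were 26 and 43. The peaks of both groups thus had nearly the same median fold, and those of the Mef2 genes pooled over all places rested on more fragments. By place, the medians were alike elsewhere within 50 kb, 26 and 26.5 fragments, and 25.5 and 39 in the gene body away from starts. The 9 Mef2 peaks at starts of other genes had a median of 59, against 15 at the 1 such peak of the lineage masters. At own starts the order was reversed, with 99 at Pax3 and a median of 49 at the Mef2 genes.

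**Figure D3:**
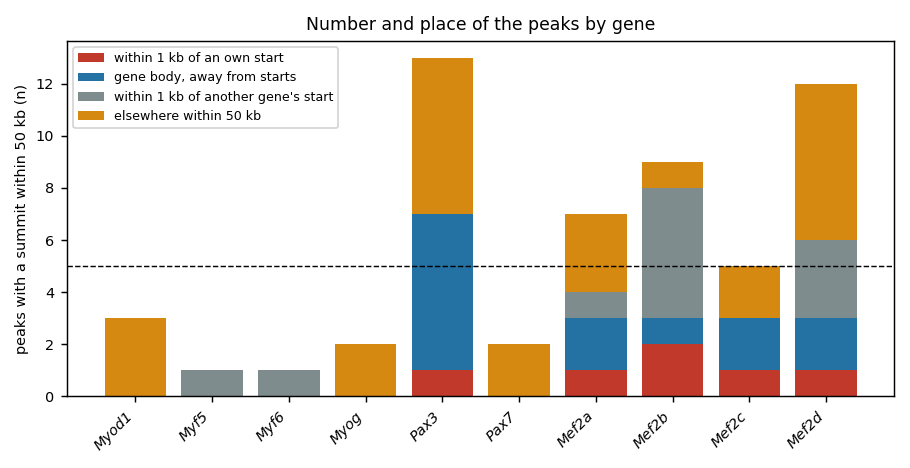
Number of peaks with a summit within 50 kb of each gene, stacked by place, with the median of all protein-coding genes, 5, as a dashed line. Peaks at own starts (red) appear at Pax3 and the 4 Mef2 genes, Pax3 has the most peaks in the gene body (blue), 6 beside its start peak, and 5 of the 9 peaks of Mef2b lie at starts of its neighbours (grey).

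Mef2a (chr7:67231163-67372858, − strand, 141.7 kb) had a strong peak at its outermost start (chr7:67372570-67373668), with a fold of 10.5 on 54 fragments (40.6 to 70.5). Its summit lay 0.463 kb before the start, and the peak came within 1 kb of 2 of the 7 distinct annotated starts. The interval of its fragment number does not reach that of Pax3. In intron 4 of 11, peaks at chr7:67283496-67283909 and chr7:67287539-67287830 had folds of 12.1 and 9.70. An upstream peak at 18.2 kb (chr7:67390799-67391173) was higher still, 13.1 on 50 fragments. With a median fold of 10.5 over its 7 peaks, Mef2a had the strongest peaks of the 10 genes by this measure. The upstream peak is printed with an AP-1 match and a RUNX match (TGTGGT) in capitals, and the RUNX letters begin 1 base after the summit.
Mef2a upstream peak, chr7:67390911-67391111, + strand of GRCm38: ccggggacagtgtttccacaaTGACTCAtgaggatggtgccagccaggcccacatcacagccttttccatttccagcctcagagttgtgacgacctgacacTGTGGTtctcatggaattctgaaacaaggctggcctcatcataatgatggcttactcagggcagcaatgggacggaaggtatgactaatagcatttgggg

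Mef2b (chr8:70139711-70167488, + strand, 27.8 kb) had 2 start peaks. The one at the outermost start (chr8:70139008-70139922) had a fold of 9.77 on 63 fragments, and it also lies within 1 kb of starts of Borcs8 and Rfxank, so its fragments cannot be assigned to Mef2b alone. The second (chr8:70152427-70152778), at the start of the other annotated transcripts 13.0 kb into the gene, had 9.89 on 49 fragments and touches no start of another gene. A peak in a coding exon near the 3′ end (chr8:70166828-70166964) was weaker at 4.42. The surroundings of Mef2b are dense with genes, and 5 of its 9 peaks lay at starts of Gm25906, Nr2c2ap, Tmem161a and Slc25a42, the last with 118 fragments.

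Mef2c (chr13:83504034-83667080, + strand, 163.0 kb) passed the start rule only through a weak peak at an internal start. That peak (chr13:83652094-83652257) had a fold of 3.15, a −log10 q of 2.31 and 11 fragments (5.49 to 19.7), and lay 631 bp from the start of transcript Mef2c-211, in intron 8 of the longer transcripts. It lies within 1 kb of 1 of 27 distinct annotated starts and overlaps none, and its fold was above that of 1.15% of the protein-coding genes with a start peak. Around the outermost start, no peak was found from 42.0 kb upstream to 61.8 kb downstream. Counted at the outermost start alone, Mef2c was closed, as were the 5 lineage masters. Yet the peak with the highest fold of all 54, 14.4 on 60 fragments (45.8 to 77.2), was in intron 4 of Mef2c, 100 kb from the start (chr13:83603910-83604251). Intron 2 held a peak with a fold of 6.30.

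Of the 54 peaks, the intron 4 peak of Mef2c alone matched the MEF2 consensus within 100 bases of the summit. The same 10 letters CTAAAAATAG occurred in it at chr13:83603975-83603984 and at chr13:83603997-83604006, 22 bases apart. Of all peaks, 1.82% have a match and 0.0347%, 22 peaks, have 2 or more. The matches in the Mef2c peak lie at −85 to −76 and −63 to −54 bases from the summit. Within 50 bases of the summit, 0 of the 54 peaks have a match. Capitals mark both matches and, towards the end, a RUNX match on the opposite strand.
Mef2c intron 4 peak, chr13:83603960-83604160, + strand of GRCm38: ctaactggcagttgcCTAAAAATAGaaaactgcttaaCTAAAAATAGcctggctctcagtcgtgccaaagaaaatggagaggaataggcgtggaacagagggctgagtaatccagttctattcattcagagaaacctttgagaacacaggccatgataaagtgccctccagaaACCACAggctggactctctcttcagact

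Mef2d (chr3:88142372-88172086, + strand, 29.7 kb) had a broad cluster of moderate peaks at its start. The start peak itself (chr3:88142000-88142491) had 46 fragments (33.7 to 61.4), as many as the Mef2a and Mef2b start peaks within counting error, but a fold of 3.63 because the local expected number was 11.9 rather than 4.24 and 4.06 there. It came within 1 kb of 4 of the 6 distinct starts, and its fold was above that of 2.66% of protein-coding start peaks. Together with 2 peaks upstream and 2 in intron 1, from 3.96 kb before to 6.84 kb after the start, it formed a run of 5 peaks with 32 to 50 fragments and folds of 3.63 to 4.51. Each of them had an expected number of 6.94 to 11.9 fragments, against a background of 2.81 over the library. For this gene, the fold and the fragment number therefore rank the start differently. Stronger peaks of Mef2d lay 14.1 kb upstream, with a fold of 11.3, and at starts of the neighbours 1700113A16Rik (11.1) and Gm3764 (14.2).

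The sequences before the starts of Mef2a and Mef2d are printed beside those of Myog and Myf5, again with CpG in capitals, 21 and 19 in 250 bases.
Mef2a, chr7:67372859-67373108, − strand of GRCm38: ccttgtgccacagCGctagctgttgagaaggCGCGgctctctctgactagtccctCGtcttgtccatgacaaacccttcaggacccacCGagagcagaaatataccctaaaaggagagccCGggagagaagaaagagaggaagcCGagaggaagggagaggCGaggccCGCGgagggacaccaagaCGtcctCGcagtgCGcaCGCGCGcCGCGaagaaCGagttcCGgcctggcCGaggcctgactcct
Mef2d, chr3:88142122-88142371, + strand of GRCm38: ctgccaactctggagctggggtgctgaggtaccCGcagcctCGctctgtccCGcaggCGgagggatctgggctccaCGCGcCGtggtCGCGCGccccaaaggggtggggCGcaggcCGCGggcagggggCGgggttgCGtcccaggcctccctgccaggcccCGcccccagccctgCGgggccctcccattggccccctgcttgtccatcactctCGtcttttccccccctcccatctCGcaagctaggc

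RefSeq promoters of 300 bases, 250 before and 50 after the start, were matched for 7 of the 10 genes, with 9 promoters, 3 of them of Mef2c. CpG content was expressed as the ratio of observed to expected CpG, for which the median of 20150 promoters of protein-coding genes was 0.588. The 3 promoters with a peak within 1 kb were those of Mef2a at 0.929, Mef2d at 0.619 and Mef2b at 0.457. The 6 without one were those of Pax7 at 0.581, Myog at 0.373, Myf5 at 0.163 and Mef2c at 0.612, 0.228 and 0.109. The values of open and closed promoters overlap, since Pax7 and 1 Mef2c promoter had a higher ratio than Mef2b, on 17, 10 and 11 CpG. Myod1, Myf6 and Pax3 were not matched.

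**Figure D4:**
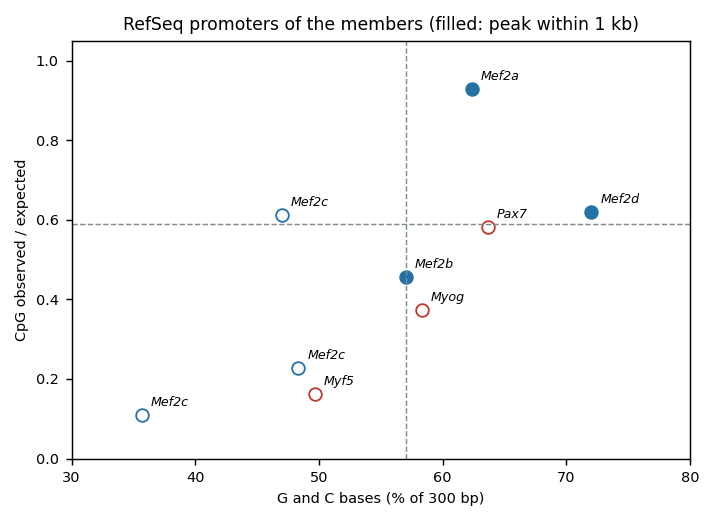
Share of G and C bases (%) and ratio of observed to expected CpG in 9 RefSeq promoters of 7 of the genes, lineage masters in red and Mef2 genes in blue; filled points have a peak within 1 kb, and dashed lines are the medians of all protein-coding promoters, 57% and 0.588. The filled points span 0.457 to 0.929 and the open ones 0.109 to 0.612, so they overlap.

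In these promoters the searched motifs were rare. A MEF2 match with the same letters as in the Mef2c intron, CTAAAAATAG, spanned the start of Mef2a (chr7:67372851-67372860), with 2 bases before it and 8 from it on, and 2.70% of protein-coding promoters hold a match of the MEF2 consensus. The promoter of Myf5 had 1 RUNX match and 1 of the Mef2c promoters had 1 TEAD match, motifs that 14.7% and 13.4% of promoters hold. The promoter of Myog is known for an E-box and a MEF2 site, but it held neither the letters CAGCTG nor a match of the strict MEF2 consensus. This says only that these spellings are not in the window. The printed Myog sequence does hold CTATATTTAT, which departs from the searched MEF2 consensus only in its last letter. It also holds CAGTTG, an E-box spelling that was not searched.

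Motif content was then compared with that of the whole library. Both strands were searched within 100 bases of each summit. AP-1 was found in 18 peaks (33.3%, against 30.1% of all peaks), the E-box CAGCTG in 6 (11.1% against 13.3%), TEAD in 8 (14.8% against 15%) and RUNX in 6 (11.1% against 19.8%). RUNX was thus the motif whose share lay farthest below that of all peaks in percentage points. Within 50 bases of the summit RUNX was found in 1 peak (1.85% against 11.4%) and AP-1 in 16 (29.6% against 21.7%). The other values are again for 100 bases. MEF2 was found in 1 (1.85% against 1.82%) and the CArG box, the site of serum response factor, in 0 (against 1.16%). Of the AP-1 matches, 15 were among the 38 peaks away from any start, 39.5% against 36.5% of all such peaks. The letters CAGCTG, a spelling of the E-box, were present in 2 of the 3 Myod1 peaks, at 34.8 kb upstream and past the 3′ end. They were also in 2 peaks of Mef2a and in 2 of Mef2d. None of the windows of Myf5, Myf6, Myog, Pax3, Pax7, Mef2b or Mef2c held these letters. Other spellings of the E-box, such as CAGTTG in the printed Mef2c intron 4 window, were not searched. In whole peaks instead of windows, MEF2 matches lay in 4 peaks (7.41%, against 3.50% of all peaks), at the Mef2a start, in introns 2 and 4 of Mef2c and 1.68 kb upstream of Mef2d. The Mef2 genes supply 33 of the 54 peaks.

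The other lists of pathway genes fell on both sides of the 53.7% of all protein-coding genes with a start peak. Of 13 upstream regulators of the muscle lineage, 2 had a peak at a start, the homeobox gene Six4 (fold 8.55) and the transcriptional cofactor gene Eya1 (10.5). The 11 without a start peak include Meox1, Meox2, Lbx1 and Tbx1, so this list was mostly closed like the lineage masters. The E-protein partners Tcf3, Tcf4 and Tcf12 all had one, with folds of 7.32, 14.3 and 7.23. Inhibitors of the myogenic factors had one in 11 of 12 genes, all but Mdfi, from Bhlhe41 at 11.2 down to Hey1 at 3.06, and the Id genes, whose proteins bind E-proteins and keep them from DNA, were at 6.02 to 9.70. Cofactors of MEF2 had one in 7 of 7, from Cabin1 at 15.9 down to the histone deacetylase gene Hdac7 at 6.29. The Hey1 peak rested on 11 fragments with a −log10 q of 2.16. Twist1 is counted both among the inhibitors and among the fibroblast genes. Among the inhibitors Id4, Twist2 and Zeb1, and among the cofactors Ep300 and Hdac5, had a start peak shared with another gene's start.

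Genes of differentiated muscle had a start peak in 12 of 34 (35.3%), against 53.7% of all protein-coding genes. Among those without one were the fusion genes Mymk and Mymx, the actin genes Acta1 and Actc1, the dystrophin gene Dmd and the myosin heavy chain genes Myh2, Myh3, Myh4, Myh7 and Myh8. The highest fold, 11.6 at Mylpf, was at a peak shared with the start of Tbc1d10b, and those of Actn3, Myh1 and Myl4 were also shared with another gene's start. Of the rest, Tnni1 at 6.27, Itga7 at 5.86, Casq1 at 5.29, Des at 5.00 and Ckm at 4.32 were below the median start peak of protein-coding genes, 9.86.

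**Figure D5:**
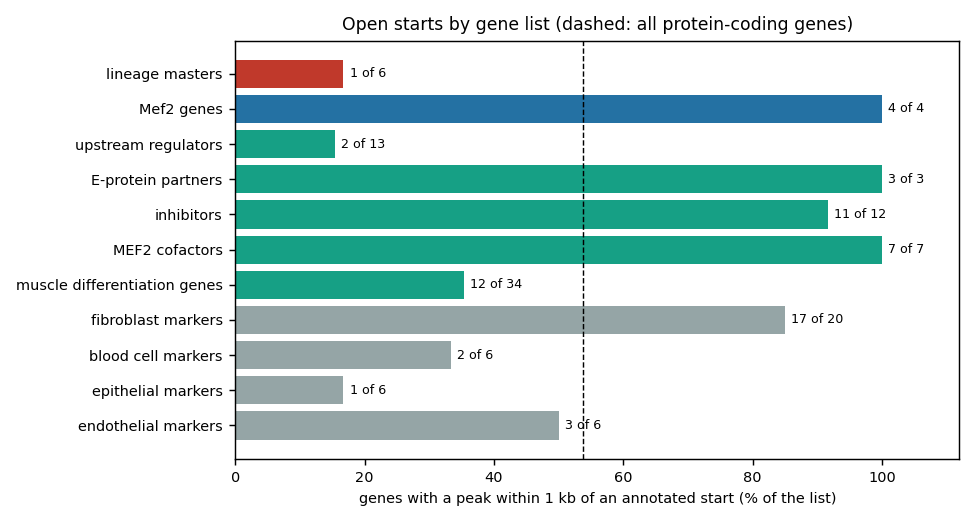
Share of genes with a peak within 1 kb of an annotated start (%) in the lineage masters, the Mef2 genes, 5 lists of pathway genes and 4 lists of cell type markers, with the count beside each bar and the share of all protein-coding genes, 53.7%, as a dashed line. E-proteins, inhibitors, MEF2 cofactors and fibroblast markers lie above the line, and lineage masters, upstream regulators and muscle differentiation genes lie below it.

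The distances used to assign peaks left few cases at the limits. Just inside 1 kb of a start was the Mef2c peak at 631 bp, and just outside were a Mef2d peak at 1516 bp with a fold of 4.51, at a gene that had a start peak anyway, and the Myod1 peak at 2629 bp. Just inside 50 kb were peaks at 49.0 kb from Mef2d, 48.9 kb from Pax7 and 48.1 kb from Mef2c. Just outside were peaks at 52960 bp from Pax7 with a fold of 4.46 and at 52982 bp from Mef2a with 5.25.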

How the data were processed

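ATAC-seq of 1 library of parental NIH-3T3 cells was analysed. Reads were mapped by the authors to mm10 (STAR), duplicates were dropped, and peaks were called on whole fragments (MACS2), and the submitters' processing notes name STAR 2.5.3a and MACS2 2.1.1.20160309. No shift for the Tn5 cut is described. The deposited list gives, per peak, a fold enrichment (a ratio with 1 added to both pileups), a −log10 p-value and a −log10 q-value, and a score derived from the q-value, which was not used. No count table was used here, so the depth is known only through the fragments at the summits, which were solved from fold and −log10 p by bisection after checking on simulated data. In the list, 99.997% came out within 0.02 of a whole number. No list of blacklisted regions was used. Distances run from the outermost 5′ start in GENCODE M21. A peak was placed at a start when its interval lay within 1 kb of any annotated start, and otherwise by its summit. Promoters and sequences are from RefSeq GRCm38.p6. Percentages of background are over all protein-coding genes or all peaks. Named were the 10 listed genes, the peaks that decide their counts or have the highest fold, and for each further list the genes with the highest and lowest start peak. Other genes of those lists, the MEF2 matches and the Cdh5 and Pecam1 peaks were named after their values were seen. Of the list of upstream regulators, 2 genes are not reported here. The members and lists were chosen with earlier results of these data known. Alternatives were other distances, q limits of 0.01 and 1e-05, a fold of at least 5, overlap instead of summit, other windows and −log10 q or fragments in place of fold. The tools were pysam 0.24.0, matplotlib 3.10.9, SciPy 1.17.1, pandas 2.3.3 and NumPy 2.4.6 under Python 3.11.15.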

Additional observations from a re-analysis of the deposited data

How the results depend on the processing

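Of 57 alternatives, 42 left their value within a ratio of 1.5 of the main one and 15 moved it further. A change from 4 to 3 genes thus counts as within. No shares over all protein-coding genes are given for the alternatives on starts. Dropping peaks within 1 kb of another gene's start left 20 of 21 at the lineage masters and 23 of 33 at the Mef2 genes. The lineage masters with a start peak stayed at 1 under every alternative run but the distance of 5 kb, which gave 2 by adding Myod1. The Mef2 genes with one fell from 4 to 2 at a fold of at least 5, losing Mef2c and Mef2d, and to 3 at 500 bp, at a q of 1e-05, with peaks that overlap the start itself, or at the outermost start only, losing Mef2c. A fold of at least 5 also lowered the body peaks of the Mef2 genes from 9 to 5 and their peaks within 50 kb from 33 to 21, and 100 kb raised the latter to 54. Peaks of the lineage masters fell from 21 to 8 without Pax3, an alternative chosen after seeing the data, as was the outermost start together with a q of 1e-05, which gave 1 and 3 genes. The start peak of Pax3 was 1.69 times the median of the Mef2 start peaks in fold, 1.98 times in fragments and 2.82 times in −log10 q, taking for each gene the start peak highest in that measure. Windows of 50 bases to either side of the summit and whole peaks gave 3 and 11 peaks with the E-box letters CAGCTG. The share of all peaks moved likewise to 7.13% and 23.1%. For a MEF2 match these windows and whole peaks gave 0 and 4, where the share moved to 0.79% and 3.50%. For RUNX they gave 1 and 12 peaks, against 11.4% and 30.3% of all peaks. No paired analysis was possible because the peaks come from a single library, and for the same reason no library could be left out. Peaks resting on 10 to 15 fragments, such as the Mef2c start peak, are at the limit of this depth.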
